A study of Mus musculus with 6 samples.

Results

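The genes described here are 34 mouse genes that encode serine/arginine-rich (SR) proteins and heterogeneous nuclear ribonucleoproteins (hnRNPs), of 35865 genes with at least 1 transcript matched to the annotation. They were chosen by symbol, not by a threshold on measured values, but with earlier results of these data known. They are 13 SR or SR-like genes (Srsf1 to Srsf7, Srsf9 to Srsf12, Tra2a and Tra2b) and 21 hnRNP genes (the Hnrnp genes and Syncrip). Their 308 annotated transcripts were followed in RNA-seq of the hippocampus of 6 mice, 3 WT and 3 Prmt9 KO, all of them female B6J animals of 2 weeks. The Prmt9 KO mice lacked exon 5 of Prmt9 in the whole body, after germline excision of a floxed allele by CMV-Cre, and the WT mice were their littermates. Prmt9 encodes an arginine methyltransferase whose main substrate, SF3B2, is a subunit of the U2 snRNP, so the comparison asks whether other regulators of splicing differ in level or in transcript form when the enzyme is missing.

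SR proteins bind short exonic RNA motifs through RNA recognition motifs and recruit the spliceosome through their arginine/serine-rich domains, and hnRNPs coat nascent RNA and often act against exon inclusion. Many of these genes control their own output. Excess protein favours inclusion of a poison exon, a highly conserved exon with an in-frame stop codon, or retention of an intron, and the resulting transcript is degraded by nonsense-mediated decay (NMD) or held in the nucleus. The share of a gene's RNA in such transcripts can therefore reflect this feedback, within the limit that NMD removes part of what is made. The annotated classes used here also hold transcripts of other structure.

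A poison exon was defined here from the annotation, as an internal exon of a transcript of the NMD class that no protein-coding transcript of the gene has and that lies within an intron of one. The definition gave 19 such exons in 12 of the genes. Of these, 18 had enough signal for a test. In 10 of the 18, 1 in each of 10 genes, the stop codon of the NMD transcript lay inside the exon, and in 8 it lay upstream of it. The distance from the stop codon to the last exon junction was at least 101 bases in each. The exons of Srsf3, Srsf6, Tra2a, Tra2b, Hnrnpl and Hnrnpll are printed because each holds the stop codon, so that the premature end of the reading frame can be read directly. Each line runs from the first base of the exon to the stop codon, 5′ to 3′ on the gene's strand, with the stop codon in capitals, as taken from the GENCODE M21 transcript sequences (GRCm38).
Srsf3 exon of 456 bases, chr17:29039454-29039909, forward strand: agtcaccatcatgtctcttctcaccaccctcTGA
Srsf6 exon of 268 bases, chr2:162932815-162933082, forward strand: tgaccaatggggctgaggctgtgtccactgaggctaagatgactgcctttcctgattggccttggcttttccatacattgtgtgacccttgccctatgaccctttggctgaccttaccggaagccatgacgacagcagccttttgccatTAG
Tra2a exon of 306 bases, chr6:49252803-49253108, reverse strand: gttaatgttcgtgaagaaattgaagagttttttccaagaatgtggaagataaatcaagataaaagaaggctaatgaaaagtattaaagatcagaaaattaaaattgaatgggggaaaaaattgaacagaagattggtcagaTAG
Tra2b exon of 276 bases, chr16:22258986-22259261, reverse strand: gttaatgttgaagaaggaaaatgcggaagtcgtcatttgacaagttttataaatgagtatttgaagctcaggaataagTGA
Hnrnpl exon of 70 bases, chr7:28817335-28817404, forward strand: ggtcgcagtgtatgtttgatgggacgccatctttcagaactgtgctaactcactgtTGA
Hnrnpll exon of 83 bases, chr17:80044940-80045022, reverse strand: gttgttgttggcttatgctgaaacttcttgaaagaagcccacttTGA

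The stop codon starts at base 32 of the Srsf3 exon, at base 150 of the Srsf6 exon, at base 142 in Tra2a, 79 in Tra2b, 57 in Hnrnpl and 45 in Hnrnpll. Compared with the 1463 poison exons of all genes that were tested, the 18 of these genes with enough signal were long. Their median length was 179 bases (70 to 460 bases) against 113 bases, and 6 of the 18 (33.3%) had 250 bases or more, against 8.75% of all tested. The length was not a multiple of 3 in 9 of the 18 (50%), against 67.9% of all.

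Depth was between 194098391 and 286771677 estimated counts per mouse. Prmt9 had 11.8, 15.2 and 15.0 TPM (transcript abundance corrected for length and scaled to a fixed total) in the WT mice and 3.93, 4.61 and 4.67 TPM in the Prmt9 KO mice, 31.5% of the WT mean (log2 fold change −1.71, SE 0.10, edgeR adjusted p = 0.0327), so the labels held although the edgeR adjusted p was above the call threshold of 0.01. The mice numbered 1 stood apart from the others: along the leading principal component of gene counts, which held 67.4% of the variance, WT 1 lay at 109.9 and KO 1 at 30.6, and the other 4 mice between −37.5 and −31.3. WT 1 had no count in 37.4% of transcripts, against 22.8% to 24.8% in the others. The 8 marker lists of hippocampal and neighbouring cells were all detected, with no marker at 0 TPM in every mouse, and no marker of them had an unadjusted p below 0.05 in edgeR. The oligodendrocyte markers (0 of 5 higher in Prmt9 KO, median log2 fold change −0.39) summed to 2040 TPM in WT 1 and 1065 in KO 1, against 7438 to 10734 in the other mice. The excitatory neuron markers summed to 1587 and 1668 TPM in the mice numbered 1 and to 2633 to 2800 in the others, and the endothelial and mural markers to 188 and 181 TPM against 119 to 136. The choroid plexus markers varied widely among the mice, with 7265, 609 and 2002 TPM in WT and 866, 2329 and 3340 TPM in Prmt9 KO. In bulk tissue, fewer cells of a type and less RNA per cell cannot be told apart.

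At the gene level, no difference in the 34 genes between the genotypes passed the test. edgeR called 0 of 34 (adjusted p under 0.01 with a fold change over 1.5), beside 0% of the 20315 genes tested. The count at an unadjusted p below 0.05 was 0 of 34 in edgeR, against 1.24% of all genes, and it was also 0 of 34, with 0 calls, in DESeq2 and in limma on log2(TPM + 1). The median log2 fold change was −0.05, against −0.01 over all genes, with 16 genes above and 18 below 0, and the extremes were −0.22 for Hnrnpa0 and 0.14 for Hnrnpll. The 95% interval of the fold change lay within 1.5-fold in both directions for 29 of the 34 genes. For the other 5, Srsf3, Tra2a, Hnrnpa0, Hnrnpab and Hnrnph3, the interval reached past 1.5-fold.

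**Figure D1:**
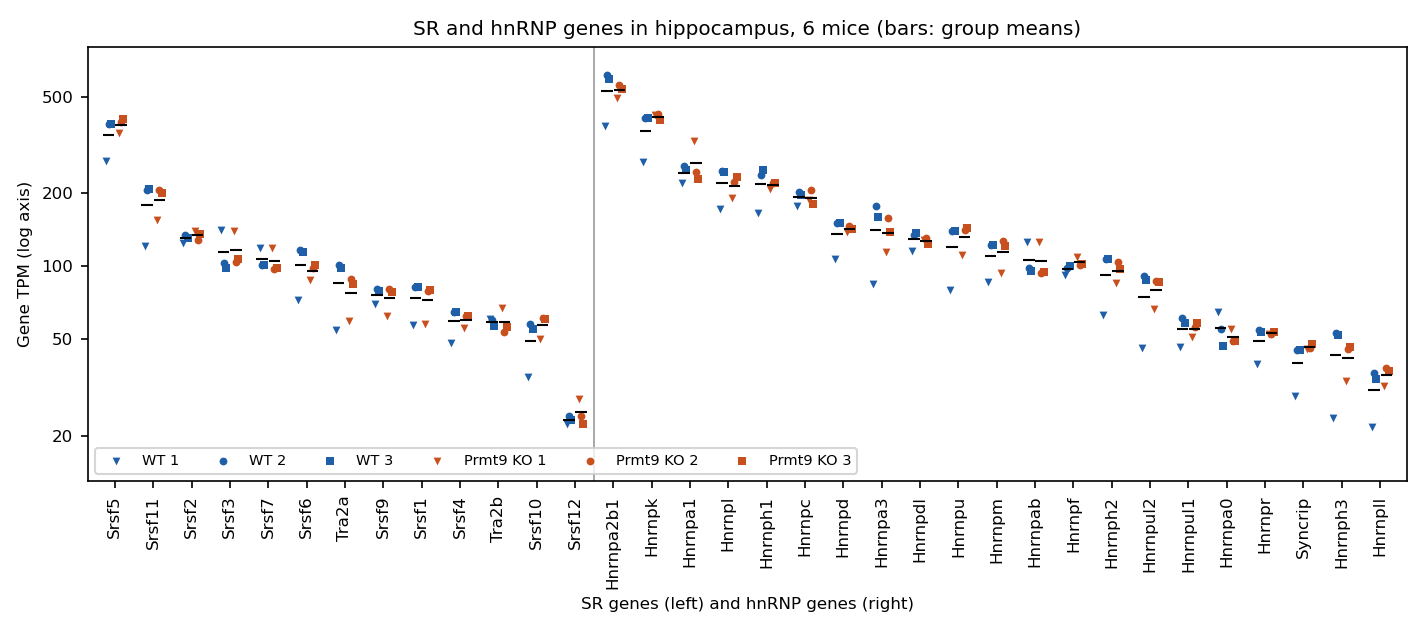
Gene TPM (log axis) of the 13 SR genes (left of the line) and 21 hnRNP genes (right), each ordered by mean level, with 1 point per mouse (blue WT, orange Prmt9 KO, triangles the mice numbered 1) and black bars for the group means. WT 1 is the lowest of the 6 mice for 27 of the 34 genes.

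Among the SR genes, 4 were above and 9 below 0, with a median log2 fold change of −0.07 and a smallest unadjusted p of 0.248 (edgeR, Srsf1). Srsf5, a classical SR splicing activator, was the most abundant, with 272.4, 386.7 and 384.1 TPM in WT 1, 2 and 3 and 353.3, 392.1 and 403.5 TPM in KO 1, 2 and 3 (log2 fold change 0.05, SE 0.09, edgeR adjusted p above 0.99). WT 1 was far below the other 5 mice in TPM and the groups overlapped. Estimated counts scaled for depth (CPM) did not show this drop. The lowest CPM of any mouse was 271.2, with means of 272.7 in WT and 282.9 in Prmt9 KO. Srsf12, the SR gene with the lowest level, had 22.4, 24.1 and 23.1 TPM in WT and 28.2, 24.2 and 22.4 TPM in Prmt9 KO, with the highest value in KO 1 and the rest close together. Srsf3, the smallest SR protein, went the other way in the mice numbered 1, with 141.3 TPM in WT 1 and 139.7 in KO 1 against 98.0 to 107.4 in the other 4.

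Among the hnRNP genes, 12 were above and 9 below 0, with a median log2 fold change of 0.00 and a smallest unadjusted p of 0.268 (edgeR, Hnrnpll). Hnrnpa2b1, whose protein packages pre-mRNA and carries mRNAs in neurons, was the most abundant of the 34 genes, with 376.6, 613.8 and 593.2 TPM in WT and 493.1, 560.2 and 536.3 TPM in Prmt9 KO (log2 fold change −0.04, SE 0.14). Hnrnpk, a poly(C)-binding protein with KH domains, had 269.9, 406.2 and 406.8 TPM in WT and 418.9, 423.1 and 398.3 TPM in Prmt9 KO (log2 fold change 0.02, SE 0.12). In both genes the 3 KO mice lay close together and WT 1 was the lowest of all, so the groups overlapped.

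Hnrnpa1, a splicing silencer that opposes SRSF1, had 220.9, 257.4 and 249.7 TPM in WT and 328.2, 244.4 and 229.3 TPM in Prmt9 KO (log2 fold change 0.04, SE 0.18). KO 1 was the one mouse far from the others. Hnrnpl, which binds CA repeats, had 171.7, 245.5 and 245.1 TPM in WT and 190.4, 221.1 and 232.2 TPM in Prmt9 KO (log2 fold change −0.10, SE 0.09), the mouse numbered 1 being the lowest in each group. Its paralog Hnrnpll, a regulator of CD45 exons in lymphocytes and the hnRNP gene with the lowest level here, had 21.8, 36.3 and 34.4 TPM in WT and 32.0, 37.9 and 37.1 TPM in Prmt9 KO (log2 fold change 0.14, SE 0.12).

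The TPM of the groups did not overlap in 2 of the 34 genes, where 6.67% of all genes tested had this. Hnrnpf, which binds G tracts, had 92.2, 98.4 and 100.3 TPM in WT and 108.9, 101.3 and 102.0 TPM in Prmt9 KO, and Syncrip (hnRNP Q), a component of neuronal mRNA granules, had 29.1, 45.2 and 45.3 TPM in WT and 45.5, 46.0 and 47.9 TPM in Prmt9 KO. Both genes were higher in TPM in the KO mice, but for each the gap between the nearest WT and KO mice was small. In CPM the group means were close. They were 94.7 in WT and 96.3 in Prmt9 KO for Hnrnpf (log2 fold change 0.02, SE 0.14). For Syncrip they were 68.8 in WT and 70.9 in Prmt9 KO (log2 fold change 0.04, SE 0.09). The edgeR adjusted p was above 0.99 for both.

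**Figure D2:**
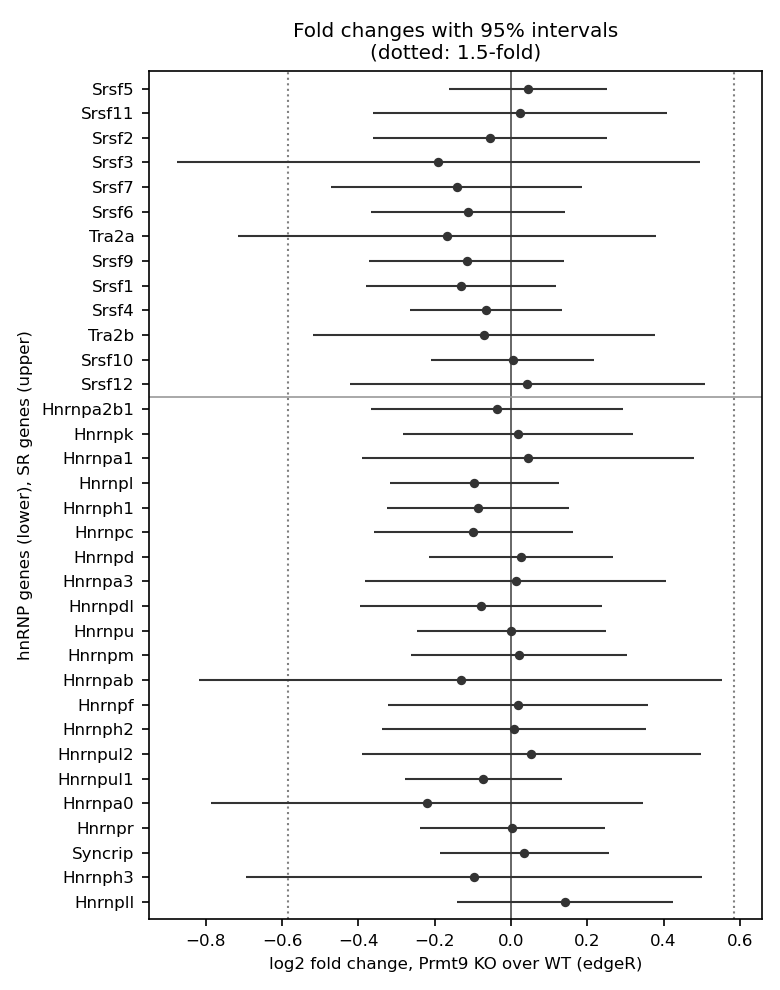
Log2 fold change of Prmt9 KO over WT from edgeR for the 34 genes, with 95% intervals and dotted lines at 1.5-fold. Of the 34 intervals, 29 stay between the dotted lines and each of the 34 includes 0.

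These counts changed when the mice numbered 1 were left out. WT 1 had the lowest TPM of the WT mice in 29 of the 34 genes, and its ratio to the mean of WT 2 and WT 3 ran from 0.450 (Hnrnph3) to 1.41 (Srsf3), with a median of 0.705, whereas the median ratio of KO 1 to the other KO mice was 0.898. These ratios are of TPM, whereas edgeR tested counts, and in Srsf5 the low WT 1 value was not seen in CPM. Without both mice numbered 1, 9 of the 34 genes had an unadjusted p below 0.05 in edgeR, against 16.4% of all genes tested. Still 0 of the 34 were called. All 9 were lower in Prmt9 KO. These were Hnrnpa1, Hnrnpa2b1, Hnrnph1, Hnrnph3, Hnrnpl, Srsf1, Srsf6, Srsf7 and Tra2a. Their log2 fold changes were small, from −0.20 for Hnrnph3, which is related to the G-tract binders of the hnRNP H family, to −0.10 for Srsf1, the prototype SR protein. Tra2a, one of the vertebrate homologues of fly Transformer-2, had −0.18, and Srsf6 and Hnrnph1 had −0.17.
With the replicate number as a block, 3 of the 34 had an unadjusted p below 0.05 in edgeR, against 5.75% of all genes: Srsf1 (log2 fold change −0.13), Srsf7 (−0.14) and Tra2a (−0.16). The lowest adjusted p of any of the 34 genes over the alternatives was 0.126. The part of the mice numbered 1 in these differences was not tested.

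In 3 lists of related genes edgeR called 0 genes and 0 had an unadjusted p below 0.05. Of 12 further hnRNP-related RNA-binding proteins (Ptbp1, Pcbp2, Matr3 and others), 3 were above and 9 below 0, with a median log2 fold change of −0.03. Of 19 SR-related proteins, partners and kinases (Srrm1, Srpk1, Clk1 and others), 10 were above and 9 below 0, with a median log2 fold change of 0.02. Of 14 NMD factors (Upf1 and others), 7 were above and 7 below 0, with a median of 0.00.

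A larger share of the TPM of these genes than of all other genes was assigned to annotated transcripts of the unproductive classes. Transcripts of the NMD class (40 transcripts in 22 of the 34 genes) held 8.79%, 9.94% and 10.2% of the genes' TPM in WT 1, 2 and 3 and 9.64%, 10.3% and 10.5% in the KO mice, where all other genes had 2.33% to 2.53%. Retained-intron transcripts (82 transcripts in 25 genes) held 14.03%, 17.2% and 17.5% in WT and 14.1%, 17.2% and 18.1% in Prmt9 KO, against 5.68% to 7.64% in all other genes. Every mouse was thus above every value of the other genes in both classes. The 34 genes are also annotated with more transcripts per gene, 308 in all, against 116622 matched transcripts in the 35865 genes. The other genes include those with no annotated transcript of these classes, and genes of similar annotation were not compared. The retained-intron share was larger in the SR genes (22.98% to 29.96%) than in the hnRNP genes (9.58% to 13.02%) in each mouse, whereas the NMD shares of the families were close (10.1% to 11.5% and 8.14% to 10.4%). Between the genotypes the means were 9.63% ± 0.741 and 10.2% ± 0.452 for the NMD class (SD, n = 3 each, exact two-sided permutation test, p = 0.4) and 16.2% ± 1.92 and 16.5% ± 2.06 for retained introns (SD, n = 3 each, exact two-sided permutation test, p = 0.8). With 3 mice against 3, the smallest p that this exact test can give is 0.1.

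Gene by gene, the NMD share was tested for 21 of the 22 genes with such a transcript. For Srsf5 the share was below the minimum of 0.01. An NMD share does not measure poison exons alone. Over these genes, NMD-class transcripts with a poison exon summed to a mean of 220 TPM. Those that skip an exon of a coding transcript summed to 104 TPM, and the others to 125 TPM. Hnrnpu, Syncrip, Hnrnpa1 and Srsf1 had no poison exon by the definition used here. The share was higher in Prmt9 KO for 12 genes and lower for 9, with a median difference of 0.00308 (0.00192 over all 3126 genes tested), from −0.0172 for Tra2a to 0.0765 for Syncrip, and the difference was below 0.05 in size in 19 of the 21. limma called 0 of 21 (adjusted p no higher than 0.01 with a difference of 0.05 or more), beside 0% of all genes tested, and 0 of 21 had an unadjusted p below 0.05, against 3.01% of all. That count was also 0 of 21 with the replicate block, against 4.25% of all, and 0 of 19 without both mice numbered 1, against 8% of all. The shares of the groups did not overlap in 3 genes, against 10.1% of all.

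By TPM, the highest NMD share was that of Hnrnpu, a nuclear scaffold attachment factor, with 0.476, 0.474 and 0.471 in WT and 0.487, 0.456 and 0.4595 in Prmt9 KO. Srsf6 had 0.381, 0.379 and 0.428 in WT and 0.420, 0.393 and 0.372 in Prmt9 KO, all of it in the transcript with the 268-base poison exon printed above. In Hnrnpu and Srsf6 the 6 mice were close together whatever their genotype. From estimated counts the order of genes changed, with a WT mean of 0.420 in Hnrnpa1, 0.402 in Hnrnpu and 0.245 in Srsf6.

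Hnrnpll had 0.219, 0.442 and 0.410 in WT and 0.362, 0.423 and 0.471 in Prmt9 KO. For Hnrnpa1 the share was 0.267, 0.384 and 0.4002 in WT and 0.304, 0.425 and 0.452 in Prmt9 KO. Srsf9, which can act as a repressor of splicing, had 0.245, 0.438 and 0.388 in WT and 0.315, 0.386 and 0.366 in Prmt9 KO. The mouse numbered 1 had the lowest share of its group in each of these 3 genes, and the groups overlapped. Without WT 1 the difference of means went from 0.0620 to −0.00696 in Hnrnpll and from 0.0433 to 0.00157 in Hnrnpa1.

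Srsf1 had 0.326, 0.201 and 0.228 in WT and 0.275, 0.229 and 0.240 in Prmt9 KO, so that here the mice numbered 1 were the highest. For Hnrnpd (AUF1), which binds AU-rich elements and promotes mRNA decay, the share was 0.244, 0.234 and 0.266 in WT and 0.227, 0.271 and 0.256 in Prmt9 KO. Neither gene showed an order by genotype.

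In Syncrip the NMD share was 0.267, 0.373 and 0.384 in WT and 0.431, 0.405 and 0.418 in Prmt9 KO (limma unadjusted p = 0.0854, adjusted p = 0.9942). In Srsf4, a large SR protein, it was 0.132, 0.135 and 0.149 in WT and 0.167, 0.172 and 0.171 in Prmt9 KO (limma unadjusted p = 0.0814, adjusted p = 0.9942). Each KO mouse was above each WT mouse in these 2 genes. The difference of 0.0765 in Syncrip was 0.0395 without WT 1 and 0.0328 without both mice numbered 1. Hnrnpa2b1, the third gene without overlap, was lower in the KO mice, with 0.0356, 0.00663 and 0.00585 in WT and 0.00264, 0.00268 and 0.00377 in Prmt9 KO (limma unadjusted p = 0.0502). The high value of WT 1 came from the transcript Hnrnpa2b1-209, with 10.3 TPM in WT 1 and 0 in the other WT mice.

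**Figure D3:**
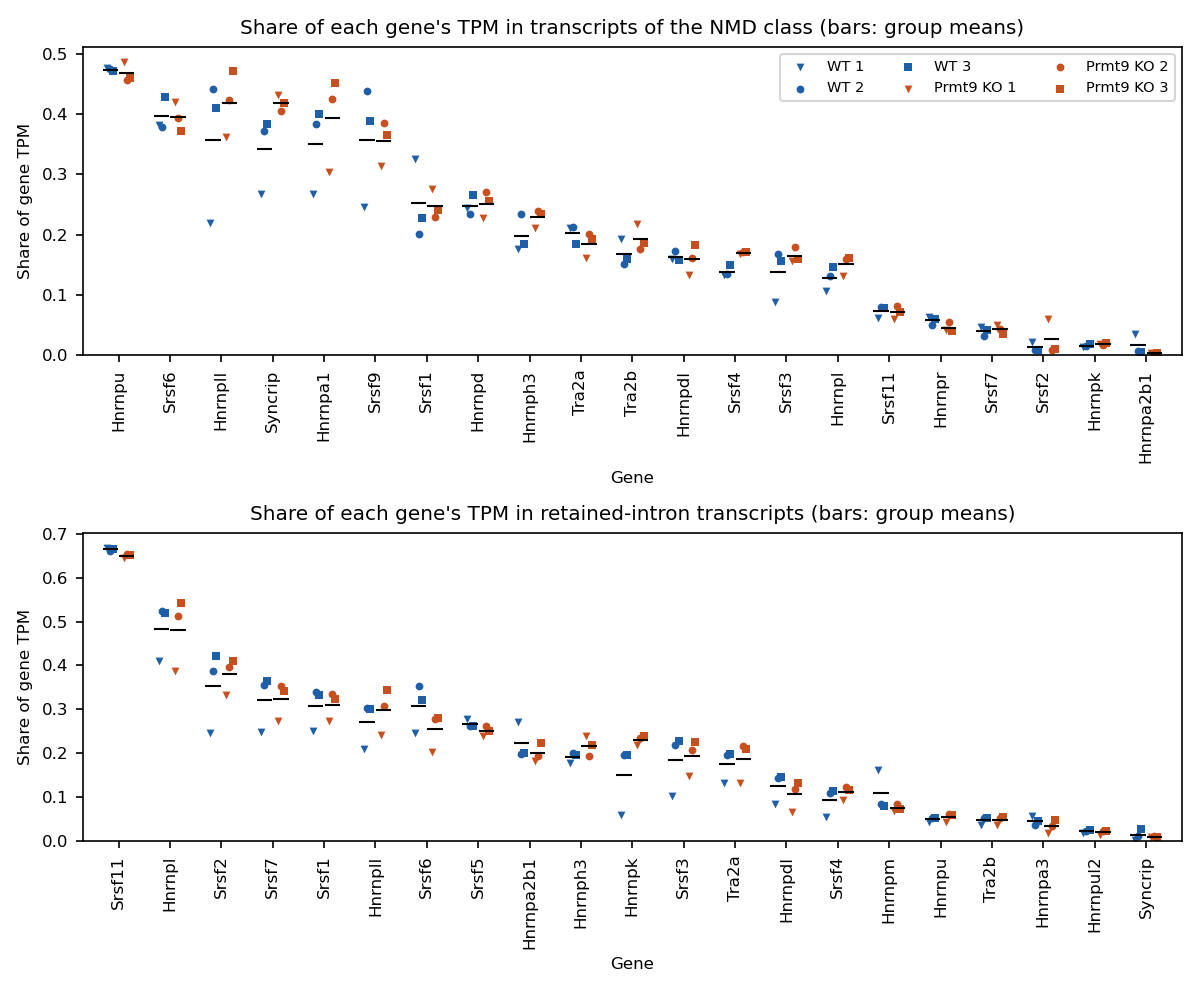
Share of each gene's TPM in transcripts of the NMD class (top) and in retained-intron transcripts (bottom) for the genes tested, with 1 point per mouse (blue WT, orange Prmt9 KO, triangles the mice numbered 1) and black bars for the group means. Shares reach 0.487 in Hnrnpu (top) and 0.669 in Srsf11 (bottom), and the genotypes overlap in 18 of the 21 genes in the top panel and 19 of the 21 in the bottom panel.

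The retained-intron share was tested for 21 of 25 genes, and the other 4 were below the minimum share of 0.01. It was higher in Prmt9 KO for 11 genes and lower for 10, with a median difference of 0.000488 (0.00184 over all 7158 genes tested). This balance moved with single mice: 4 were higher and 17 lower without WT 1, 7 and 14 without KO 2, 6 and 15 without KO 3, and 14 and 7 without KO 1. The differences ran from −0.0522 for Srsf6 to 0.0805 for Hnrnpk. limma called 0 of 21, beside 0% of all genes tested, and 0 of 21 had an unadjusted p below 0.05, against 1.96% of all. With the replicate block the count was 1 of 21 (Srsf6), against 4.93% of all genes, and without both mice numbered 1 it was 2 of 21 (Srsf6 and Hnrnpk), against 8.95% of all, with none called.

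Srsf11, an SR-related protein that binds U2AF65, had most of its TPM in retained-intron transcripts, with a share of 0.669, 0.661 and 0.666 in WT and 0.644, 0.655 and 0.651 in Prmt9 KO. Each KO mouse was below each WT mouse, by a difference of means of −0.0151 (limma unadjusted p = 0.474). Hnrnpl had 0.409, 0.524 and 0.519 in WT and 0.387, 0.512 and 0.543 in Prmt9 KO. Srsf2 (SC35), the marker of nuclear speckles, had 0.247, 0.388 and 0.422 in WT and 0.334, 0.397 and 0.409 in Prmt9 KO.
In both Hnrnpl and Srsf2 the mouse numbered 1 was clearly below the other mice of its group.

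Srsf7 had 0.248, 0.355 and 0.364 in WT and 0.273, 0.353 and 0.342 in Prmt9 KO. In Srsf1 the share was 0.251, 0.339 and 0.333 in WT and 0.273, 0.335 and 0.324 in Prmt9 KO. Hnrnpll had 0.211, 0.302 and 0.2998 in WT and 0.242, 0.307 and 0.344 in Prmt9 KO. Again the lowest value of each group was that of the mouse numbered 1, as it was in 16 of the 21 genes for WT 1 and in 19 of the 21 for KO 1.

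Srsf6 had the largest decrease in mean, with 0.246, 0.353 and 0.321 in WT and 0.204, 0.279 and 0.281 in Prmt9 KO. Srsf5 had 0.278, 0.262 and 0.263 in WT and 0.239, 0.263 and 0.251 in Prmt9 KO. Both overlapped between genotypes. Hnrnpk had 0.0588, 0.196 and 0.197 in WT and 0.220, 0.234 and 0.239 in Prmt9 KO (limma unadjusted p = 0.119), and here each KO mouse was above each WT mouse, with WT 1 far below the rest. Without WT 1 the difference in Hnrnpk went from 0.0805 to 0.0348. Hnrnpk and Srsf11 were the 2 of 21 genes without overlap, against 8.07% of all genes tested. The level of the retained-intron share depended on the measure. From estimated counts the WT mean was 0.509 for Srsf5 and 0.105 for Srsf1, against 0.267 and 0.308 from TPM.

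The inclusion of a poison exon was measured as the TPM of transcripts with the exon divided by the TPM of transcripts with the exon or with an intron that spans it. Of the 19 exons, 18 were tested, and the remaining one, a 397-base form of the Tra2b exon, had 0 TPM in the transcript that includes it in every mouse. Inclusion was common at baseline, with a median over the 18 exons of 0.216 in WT and 0.226 in Prmt9 KO, against 0.0917 and 0.0967 over all 1463 exons tested. Computed from estimated counts in place of TPM, the medians were lower and in the opposite order, 0.133 in WT and 0.124 in Prmt9 KO. Over all exons the WT median from estimated counts was 0.0463. Mean inclusion was higher in Prmt9 KO for 12 exons and lower for 6, with a median difference of 0.0120 (0.00176 over all exons). Without WT 1 the split was 9 higher and 9 lower, with a median difference of −0.00112, and without KO 1 it was 17 and 1, with a median of 0.0199. limma called 0 of 18 by the same thresholds, beside 0% of all, and 0 of 18 had an unadjusted p below 0.05, against 2.32% of all. The groups did not overlap in 2 of the 18, against 9.23% of all exons. Without both mice numbered 1, 1 of 18 exons had an unadjusted p below 0.05 in limma, the 268-base exon of Srsf6, against 7.11% of all exons, and with the replicate block 0 of 18, against 4.37%. The absence of calls does not show that inclusion was equal: the 95% interval of the ratio of included to skipped TPM reached past 1.5-fold in at least 1 direction for all 18 exons, and past 2-fold for 5. Some of the 18 share transcripts, so they are not independent of each other.

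The most included exon was the 358-base exon of Srsf9 at chr5:115328347-115328704, with an inclusion of 0.419, 0.657 and 0.663 in WT and 0.497, 0.674 and 0.662 in Prmt9 KO. The printed 268-base exon of Srsf6 had 0.505, 0.591 and 0.631 in WT and 0.528, 0.546 and 0.519 in Prmt9 KO, the lowest difference of the 18 (−0.0447). The 83-base exon of Hnrnpll had 0.251, 0.540 and 0.503 in WT and 0.435, 0.521 and 0.5996 in Prmt9 KO, the highest difference (0.0871), which was −0.00303 without WT 1. In each of these 3 exons WT 1 was the lowest of the 6 mice, and in all 18 exons WT 1 was the lowest of the WT mice in 14.

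The 2 homologues of Transformer-2 have exons that begin with the same 9 bases. The Tra2b exon was included at 0.378, 0.326 and 0.339 in WT and at 0.407, 0.357 and 0.377 in Prmt9 KO, and the Tra2a exon at 0.231, 0.254 and 0.220 in WT and 0.178, 0.246 and 0.234 in Prmt9 KO. The mean was higher in Prmt9 KO by 0.0326 for Tra2b and lower by a difference of −0.0158 for Tra2a, and both differences were within the spread of the mice. The Srsf3 exon, 456 bases long with the stop codon near its start, had 0.104, 0.239 and 0.222 in WT and 0.2003, 0.253 and 0.242 in Prmt9 KO. The 70-base Hnrnpl exon had 0.196, 0.307 and 0.326 in WT and 0.231, 0.350 and 0.371 in Prmt9 KO. For Srsf3 and Hnrnpl the mouse numbered 1 was the lowest of each group.

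Exons of Hnrnpd, Hnrnpdl and Srsf11 completed the 10 genes whose most expressed poison exon was followed. In Hnrnpd, the 107-base exon at chr5:99962098-99962204, which follows the stop codon, was included at 0.290, 0.332 and 0.387 in WT and 0.234, 0.362 and 0.345 in Prmt9 KO. In Hnrnpdl, the 105-base exon at chr5:100035635-100035739 was included at 0.226, 0.328 and 0.2997 in WT and 0.184, 0.3004 and 0.322 in Prmt9 KO. In Srsf11, the 109-base exon at chr3:158024123-158024231 was included at 0.157, 0.204 and 0.208 in WT and 0.147, 0.208 and 0.177 in Prmt9 KO. The groups overlapped in all 3, with KO 1 as the lowest of the 6 mice. The level of inclusion depended on the measure: from estimated counts the WT mean was 0.0913 for this Hnrnpd exon and 0.0377 for this Srsf11 exon, against 0.336 and 0.190 from TPM.

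The 2 exons without overlap belonged to Srsf4 and were part of the same NMD transcript, Srsf4-204. Both follow the stop codon of that transcript and do not hold it. The 207-base exon of Srsf4, which holds the stop codon of Srsf4-203, overlapped between genotypes (means 0.0786 in WT and 0.0906 in Prmt9 KO, limma unadjusted p = 0.410). The 184-base exon at chr4:131885309-131885492 had an inclusion of 0.140, 0.152 and 0.168 in WT and 0.185, 0.195 and 0.193 in Prmt9 KO (limma unadjusted p = 0.0866). The 174-base exon at chr4:131886131-131886304 had 0.0766, 0.0849 and 0.101 in WT and 0.128, 0.113 and 0.119 in Prmt9 KO (limma unadjusted p = 0.0552). Both were higher in each KO mouse than in each WT mouse, and the adjusted p of both was 0.986 in limma. From estimated counts the WT mean of the 184-base exon was 0.0608, against 0.153 from TPM. The share of Srsf4 transcripts of the NMD class given above rests on the same molecules.

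**Figure D4:**
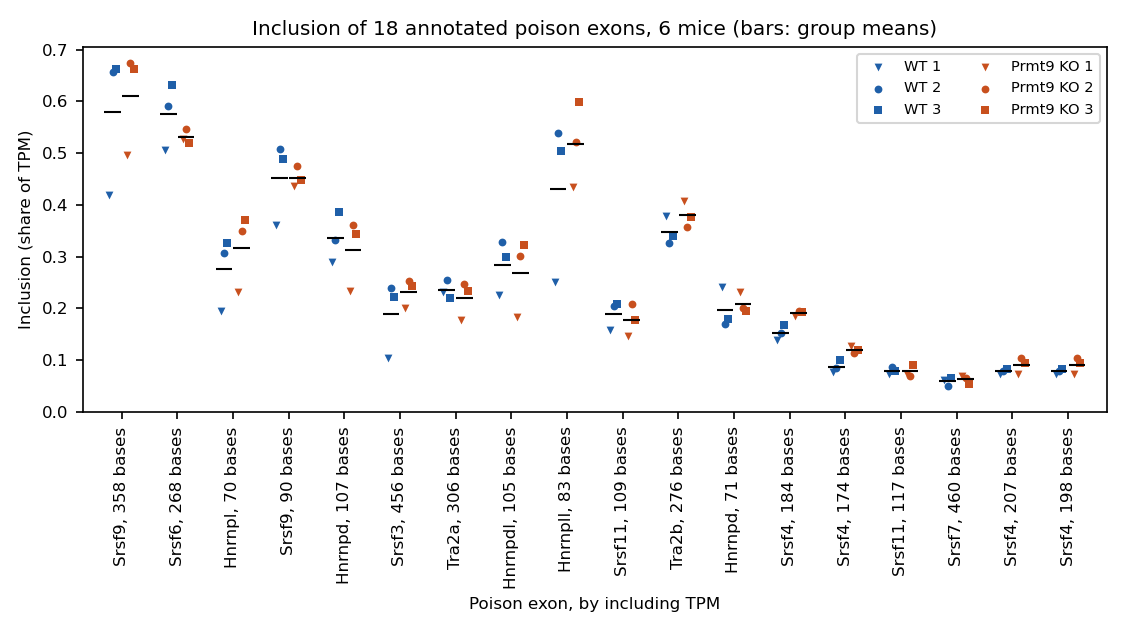
Inclusion of the 18 poison exons tested, from 0 (always skipped) upward, with 1 point per mouse (blue WT, orange Prmt9 KO, triangles the mice numbered 1) and black bars for the group means. The genotypes overlap in 16 of the 18 exons and stand apart for the 184-base and 174-base exons of Srsf4.

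Retained introns were also followed singly, as introns of a coding transcript that lie within an exon of a retained-intron transcript. The 34 genes had 40 such introns in 18 genes, and 34 introns in 16 genes had enough signal. Every transcript with an exon that contains the intron counted as retaining, also a transcript outside the retained-intron class. Retention was higher in Prmt9 KO for 15 and lower for 19, with a median difference of −0.00120 (0.00134 over all 6658 introns tested). limma called 0 of 34, beside 0% of all introns tested. At an unadjusted p below 0.05 there were 2 of 34, against 2.27% of all, and the groups did not overlap in 5 of 34, against 8.64% of all. With the replicate block the count with an unadjusted p below 0.05 in limma was 5 of 34, against 6.16% of all, and it was also 5 of 34 without both mice numbered 1, against 10.9% of all.

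Both introns with an unadjusted p below 0.05 were in Hnrnpa2b1, at chr6:51467296-51467390 (95 bases) and chr6:51467427-51469670 (2244 bases), on either side of a 36-base exon. They are measured by the same transcripts, Hnrnpa2b1-213 against Hnrnpa2b1-203 and Hnrnpa2b1-207, and so have the same values: 0.0810, 0.11995 and 0.101 in WT and 0.133, 0.157 and 0.167 in Prmt9 KO (limma unadjusted p = 0.0182, adjusted p above 0.99). The retaining transcript itself had 2.43, 6.51 and 5.69 TPM in WT and 3.28, 5.05 and 5.01 TPM in Prmt9 KO. Its groups overlapped, while the 2 spliced transcripts it is set against had lower mean values in the KO mice. A 2375-base intron at chr6:51467296-51469670 sets the same retaining transcript against those that skip the 36-base exon. Its mean retention was 0.0125 in WT and 0.0110 in Prmt9 KO (limma unadjusted p = 0.514).
The other 3 introns without overlap were a 378-base intron of Srsf1 (0.824, 0.814 and 0.805 in WT, 0.796, 0.794 and 0.786 in Prmt9 KO), a 78-base intron of Hnrnpk (0.0209, 0.107 and 0.0720 in WT, 0.125, 0.134 and 0.138 in Prmt9 KO) and a 430-base intron of Hnrnph3 (0.177, 0.182 and 0.170 in WT, 0.198, 0.186 and 0.188 in Prmt9 KO). Retention was lower in the KO mice in Srsf1 and higher in Hnrnpk and Hnrnph3, with limma unadjusted p of 0.329, 0.0554 and 0.429. In Srsf1 the transcripts counted as retaining had a WT mean of 39.1 TPM. The retained-intron class of the gene had 23.1 TPM, so transcripts of other classes are part of this value.

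Of the 308 transcripts, 269 passed the filter on low counts. edgeR called 0 of 269, beside 0% of the 75661 transcripts tested, and 10 of 269 had an unadjusted p below 0.05, against 1.61% of all. With the replicate block this count was 22 of 269, against 3.51% of all, and without both mice numbered 1 it was 38 of 274, against 9.72%, with none called. limma on log2(TPM + 1) called 0 of 222, with 7 below an unadjusted p of 0.05, against 1.54% of all. DESeq2 called 2 of 290, against 0.113% of all, with 15 below that p, against 2.68%. Of the 10 transcripts, 4 were higher and 6 lower in Prmt9 KO, the groups did not overlap in 7, and 7 had a mean below 5 TPM.

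The 4 higher ones were Hnrnpa1-203, Hnrnpu-208, Srsf10-201 and Hnrnpf-203. Hnrnpa1-203, an NMD-class transcript that skips an exon of the coding transcripts and holds 17.97% of the gene's TPM, had 24.9, 43.7 and 46.5 TPM in WT and 52.9, 53.0 and 54.0 TPM in Prmt9 KO (log2 fold change 0.46, SE 0.16, edgeR unadjusted p = 0.0287). Each KO mouse was above each WT mouse, and the KO mice differed little from each other. Hnrnpu-208, also of the NMD class, had 0.939, 2.14 and 2.22 TPM in WT and 3.07, 3.64 and 4.25 TPM in Prmt9 KO (log2 fold change 1.05, SE 0.32). Srsf10-201 and Hnrnpf-203 were below 2.1 TPM in every mouse, and Hnrnpf-203, which DESeq2 called, was at or near 0 TPM in the WT mice and had 0.302, 0.0742 and 0.164 TPM in the KO mice.

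The 6 lower ones were Hnrnpa2b1-203, Hnrnpa2b1-207, Hnrnpa3-202, Hnrnpc-211, Hnrnpk-202 and Tra2b-202. Hnrnpc-211, a coding transcript of the U-tract binder hnRNP C, had 39.1, 52.2 and 49.1 TPM in WT and 35.99, 44.4 and 36.7 TPM in Prmt9 KO (log2 fold change −0.32, SE 0.13, edgeR unadjusted p = 0.0464), with overlap between the groups. Hnrnpk-202 had 4.51, 3.85 and 2.26 TPM in WT and 1.77, 1.94 and 1.84 TPM in Prmt9 KO. Hnrnpa3-202 varied most among the WT mice, with 13.6, 4.74 and 0.356 TPM, and had 0.516, 0.658 and 1.19 TPM in the KO mice. Tra2b-202 was below 1 TPM in every mouse.

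The 2 Hnrnpa2b1 transcripts are those that include the 36-base exon at chr6:51467391-51467426 on the reverse strand of GRCm38. This coding exon of 12 codons near the N terminus is present in the B1 form of the protein and absent from the more abundant A2 form, and it is printed whole because it is the sequence that both of these transcripts contain:
Hnrnpa2b1 exon of 36 bases: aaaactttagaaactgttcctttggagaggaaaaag

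Hnrnpa2b1-203, the coding transcript with this exon, had 24.5, 43.7 and 47.4 TPM in WT and 20.1, 25.7 and 23.7 TPM in Prmt9 KO (log2 fold change −0.76, SE 0.16, edgeR unadjusted p = 0.00287). WT 1 lay below KO 2, so the groups overlapped in level. Hnrnpa2b1-207, of the NMD class, had 3.07, 4.07 and 3.47 TPM in WT and 1.30, 1.5004 and 1.29 TPM in Prmt9 KO (log2 fold change −1.43, SE 0.20, edgeR unadjusted p = 0.000367), with each KO mouse below each WT mouse. The edgeR adjusted p was above 0.99 for both. Each had an unadjusted p below 0.05 in 13 of 13 alternatives. Only DESeq2 gave an adjusted p below 0.05, with 0.0214 for Hnrnpa2b1-203 and 3.52e-08 for Hnrnpa2b1-207, the latter being the second transcript that it called. In every edgeR and limma alternative, no transcript of any gene had an adjusted p below 0.05. By contrast, Hnrnpa2b1-204, which skips the exon and holds 49.99% of the gene's TPM, had 192.8, 296.8 and 280.3 TPM in WT and 272.3, 286.9 and 257.1 TPM in Prmt9 KO (log2 fold change 0.05, SE 0.13).

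The inclusion of the 36-base exon was 0.1004, 0.0970 and 0.107 in WT and 0.0531, 0.0602 and 0.0599 in Prmt9 KO. All 3 KO mice were below all 3 WT mice, and WT 1 and KO 1, which stood apart in gene levels, did not stand apart from their groups here. The means were 0.102 ± 0.00531 and 0.0577 ± 0.00403, a difference of −0.0438 (SD, n = 3 each, exact two-sided permutation test, p = 0.1, the smallest it can give). On the log2 scale of included over skipped TPM, the difference was −0.88 (SE 0.20, 95% interval −1.36 to −0.40, limma unadjusted p = 0.00382, adjusted p = 0.997). From estimated counts instead of TPM the means were 0.107 and 0.0608. Over the 13 alternatives, which include leaving out each mouse, both mice numbered 1, and the replicate block, the difference stayed between −0.0461 and −0.0409 and the limma unadjusted p between 0.000854 and 0.0212. The difference was smaller than the 0.05 set for a call, and the adjusted p did not pass in any alternative.

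**Figure D5:**
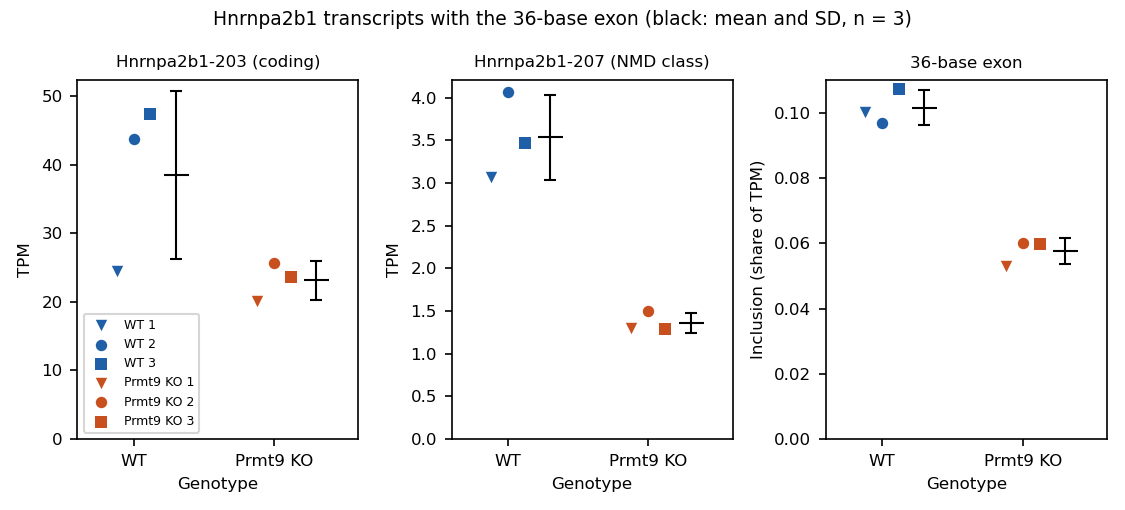
TPM of Hnrnpa2b1-203 (left) and Hnrnpa2b1-207 (middle) and inclusion of the 36-base exon (right) in each WT (blue) and Prmt9 KO (orange) mouse, with triangles for the mice numbered 1 and black marks for the mean and SD (n = 3). Inclusion lies between 0.0970 and 0.107 in WT and between 0.0531 and 0.0602 in Prmt9 KO.

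To place this exon, all exons of coding transcripts that another coding transcript of the same gene skips were fitted in the same way. The 34 genes had 47 such exons in 21 genes, of which 33 in 19 genes had enough signal. Of the 33, 17 lay wholly within the coding sequence of the most expressed coding transcript that includes them, and the other exons did not. limma called 0 of 33, beside 0% of the 9474 exons of all genes, and 1 of 33, the 36-base exon, had an unadjusted p below 0.05, against 3.05% of all. It ranked 14th by p among the 9474. This fit was added after the results of the Hnrnpa2b1 transcripts had been seen. The inclusion of the exon is computed from those transcripts, so its p and rank give no independent support. Inclusion was higher in Prmt9 KO for 17 exons and lower for 16, with a median difference of 0.000382 (−0.000132 over all exons). With the replicate block 3 of 33 exons had an unadjusted p below 0.05, against 4.93% of all, and without both mice numbered 1 it was 3 of 35, against 9.58%, all of them lower in Prmt9 KO.

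The groups did not overlap in 7 of the 33 exons, against 11.4% of all. In Hnrnpd, which makes 4 protein forms from a pair of cassette exons, the 57-base exon had 0.698, 0.703 and 0.715 in WT and 0.656, 0.686 and 0.686 in Prmt9 KO, while the 147-base exon had 0.688, 0.716 and 0.719 in WT and 0.729, 0.729 and 0.725 in Prmt9 KO. The KO mice were thus lower for the former exon and higher for the latter. A 117-base exon of Srsf11 had 0.380, 0.435 and 0.4304 in WT and 0.470, 0.443 and 0.473 in Prmt9 KO. A 139-base exon of Hnrnph3 had 0.487, 0.482 and 0.499 in WT and 0.451, 0.464 and 0.466 in Prmt9 KO. The limma unadjusted p of these 4 exons lay between 0.148 and 0.4297, and the remaining 2, a 54-base exon of Hnrnpk and a 79-base exon of Srsf9, had inclusions below 0.034 in every mouse.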

How the data were processed

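Polyadenylated hippocampal RNA of 6 mice was sequenced as stranded paired-end libraries. The authors quantified transcripts with kallisto, and the deposited files give estimated counts and TPM for 118783 transcripts per mouse. The submitters' processing notes name kallisto 0.46.0 and STAR 2.7.1a. Identifiers were matched to GENCODE M21 (GRCm38), where 2161 had no match and were left out, and estimated counts were summed per gene and rounded to whole numbers.

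Genes and transcripts were compared with edgeR 4.0.16 (R 4.3.3; TMM, filterByExpr, quasi-likelihood test, Benjamini-Hochberg adjustment) with calls at adjusted p under 0.01 combined with a fold change over 1.5. DESeq2 1.42.0 and limma on log2(TPM + 1) were alternatives. Shares and inclusions came from TPM and were fitted with limma 3.58.1 on the log2 ratio with 0.1 TPM added, for features of 1 TPM or more in each mouse whose mean share reached 0.01, with calls at adjusted p no higher than 0.01 combined with a difference of 0.05 or more. All fits ran over all features of all genes, and the gene fit and the poison exon fit were tested on simulated data. No strand, junction or read data enter these values: kallisto divides reads between transcripts of a gene by a model, so a share of similar transcripts carries an error that the spread between mice may not show. Totals were 194098391 to 286771677 estimated counts per mouse. No value column without a sample was found (0).

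The mice with the same replicate number deviated together (correlations of deviations from group means 0.5535, 0.4147 and 0.383). The main fits used no pairing. Mice with the same number were taken as pairs only in the fit with the replicate block, an alternative that is given where it moved a count. The pairing comes from the data, and the labels do not say what a number shares. Mice numbered 2 and 3 were not told apart by it (WT 2 with KO 3 0.4167, WT 3 with KO 2 0.394), and the mice numbered 1 alone stood apart.

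Values in every mouse are given for Prmt9, the 5 members with the highest and 2 with the lowest mean TPM, the 8 with the highest NMD and retained-intron share, any with an unadjusted p below 0.05, and up to 10 poison exons by TPM, 1 per gene. Features named because their groups did not overlap, or as extremes, were chosen after their values were seen. The members, the 3 lists of related genes and the marker lists were chosen with earlier results of these data known. The fit of cassette exons of coding transcripts was added after the results of the Hnrnpa2b1 transcripts had been seen. The marker lists, with their median log2 fold changes, were excitatory neuron (−0.08), hippocampal subfields (−0.04), inhibitory neuron (−0.02), astrocyte (0.03), oligodendrocyte (−0.39), microglia (−0.06), endothelial and mural (−0.07) and choroid plexus (−0.25). One gene of a related list is not reported here.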

Additional observations from a re-analysis of the deposited data

How the results depend on the processing

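The number of genes called was 0 in edgeR and became 1 without both mice numbered 1, 1 with a term for the mice numbered 1 and 3 with DESeq2, and none of these was one of the 34 genes. The number of transcripts called was 0 in edgeR and 112 with DESeq2, of which 2 belonged to the 34 genes (Hnrnpf-203 and Hnrnpa2b1-207). The causes were not tested. The replicate block gave 0 calls for genes, transcripts, shares, poison exons, introns and cassette exons and changed no call, and leaving out each mouse in turn also gave 0 calls of each kind. Over the alternatives, the number of the 34 genes' features with an unadjusted p below 0.05 ran from 0 to 3 for the NMD share, 0 to 2 for the retained-intron share, 0 to 2 for poison exons, 0 to 5 for introns and 1 to 3 for cassette exons of coding transcripts. The sign of the gene log2 fold change changed in at least 1 of 13 alternatives in 25 of the 34 genes, within −0.38 to 0.24. Of 81 single values over their alternatives, 1068 in all, 1020 stayed within their call or spread and 48 moved. Transcripts below 1 TPM rest on few estimated counts, and their shares are the least certain.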
